A study of Homo sapiens with 60 samples.

Results

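Sagunja-tang, a formula of several medicinal plants, was compared at 20 µg/mL, the lowest of its 3 doses, with the vehicle in HT29 cells, an established line from a human colorectal adenocarcinoma. The groups were taken from the treatment labels, and each held 3 libraries, so that 6 of the 60 libraries of the series entered the comparison. The treated cells received a water extract of the formula for 24 h, and the vehicle cells received dimethyl sulfoxide for the same time. The labels give the vehicle as 0.1% dimethyl sulfoxide and the series' design text gives 2%, which could not be settled here. Both groups are the same unmodified cell line, and the labels put all 60 libraries in 1 experimental batch. The series as a whole measured RNA in these cells after water extracts of single plant drugs or formulae at 500, 100 or 20 µg/mL. Samul-tang, another formula, was also given at 20 µg/mL for 24 h with 3 libraries and served as a second comparison that uses no vehicle library. Whether the 3 replicates of a group were grown as separate cultures is not given, and the p-values speak only of the library-to-library spread, which could be technical. The higher doses are nominal, because the design text lowers the top dose for extracts that inhibited growth.

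Colon epithelial cells answer bacterial products and inflammatory cytokines through NF-kB, a family of transcription factors held in the cytoplasm by inhibitor proteins until a receptor signal releases them. Their nuclear targets include chemokines that draw in neutrophils and lymphocytes, secreted defence proteins, and inhibitors that shut the pathway off again. Interferons act through a separate route, in which a STAT complex with IRF9 binds interferon response elements and turns on antiviral effectors such as the OAS and MX proteins.

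Total counts ran from 24701930 to 28496053 in the Sagunja-tang libraries, from 20701950 to 26614906 in the vehicle and from 25857752 to 30770109 in Samul-tang at 20 µg/mL, out of a range of 20459346 to 36253747 over all 60. The 57 libraries that entered the fit were split here by sample code. The first set of 27 has codes beginning B1, 5 or 6-1, and the second of 30 has codes beginning 6-2, 6-3 or 7. Every vehicle library is in the first and both formulae are in the second. The labels do not name this split, and its placing was not tested. Cinnamomi Cortex at 500 µg/mL replicate 2, in the second set, had 10.3% mitochondrially encoded mRNA, beside a median of 7.00% in that set. On the first principal component of log2 CPM it was at -15.99. The first set ran from -29.48 to -5.39 there, and the second had a median of 13.05. This library helps to estimate the set term used below, so its placing bears on every value with that term. Mitochondrially encoded mRNAs held 8.71% to 11.4% of the counts in the vehicle, 6.59% to 7.41% in Sagunja-tang at 20 µg/mL and 6.67% to 7.55% in Samul-tang at 20 µg/mL. The slope of log2 level on GC content, per 10 percentage points, lay between -0.061 and -0.05 in the vehicle, between 0.011 and 0.036 in Sagunja-tang and between -0.005 and 0.035 in Samul-tang. The comparison of the formulae with the vehicle alone cannot be told apart from a difference between the sets. The comparison with the vehicle was therefore also fitted with a library set term, estimable because Cinnamomi Cortex and Astragali Radix have replicates in both sets. The text gives both fits for the lists and says which named calls were lost with the term. Only the replicates of those plant drugs inform the term, so estimates with it are less precise. A call lost with the term can thus go with a smaller difference, with lower precision or with both. Markers of colon epithelium summed to 11575 to 12085 CPM (counts scaled to a common library total) in the vehicle and to 12059 to 12523 in Sagunja-tang. Of 12 leukocyte markers, 9 were under 1 CPM in every library of both groups, and CD3E, CD3D, MS4A1, NCAM1, FCGR3A and CD163 had no count. The summed leukocyte list, nearly all of it LYZ, was 1461 to 1500.0 CPM in the vehicle and 1418 to 1514 in Sagunja-tang.

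Some chemokine, surface defence and interferon genes were higher with Sagunja-tang at 20 µg/mL than in both the vehicle and Samul-tang. Against the vehicle, 3030 of 16356 tested genes (18.5%) passed an adjusted p under 0.05, with 1583 higher (9.68%) and 1447 lower (8.85%). Most of these differences were small, with a median size of 0.27 on the log2 scale, and 79 were at least 1 higher and 41 at least 1 lower. Tested against a minimum fold of 1.2 with glmTreat, 66 genes (0.404%) were called, 61 higher (0.373%) and 5 lower (0.0306%). With the library set term, 99 genes (0.605%) were called, of which 83 were higher (0.507%) and 16 lower (0.0978%), and 95 of them were also called without it. Against Samul-tang at the same dose, 39 genes (0.238%) were called, all of them higher with Sagunja-tang. None was lower there, with 517 genes (3.16%) at an unadjusted p under 0.05 in either direction. DESeq2 called 35 genes there, 33 higher and 2 lower. In bulk RNA, fewer cells of a kind and less RNA per cell cannot be told apart. Both comparisons use the same 3 Sagunja-tang libraries, so they are set side by side and not counted as independent. All 3 Sagunja-tang libraries lay above all 3 vehicle libraries in 18.3% of tested genes and below them in 17.4%. Against Samul-tang these shares were 5.02% and 4.49%, so a lack of overlap with the vehicle was common over all genes. Of the 39 genes, 23 belong to the inflammatory lists (80 tested genes) and 8 to the interferon lists (84 tested genes), and the other 8 are in no list. Some of the 39, among them CXCL5, C3, SAA1, IL17C, DOC2B and MIR3142HG, passed the count filter only through Sagunja-tang libraries. The count against the vehicle fell to 1458 without Sagunja-tang replicate 1, 1213 without its replicate 3, 1772 without vehicle replicate 2 and 1224 without vehicle replicate 3.

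**Figure D1:**
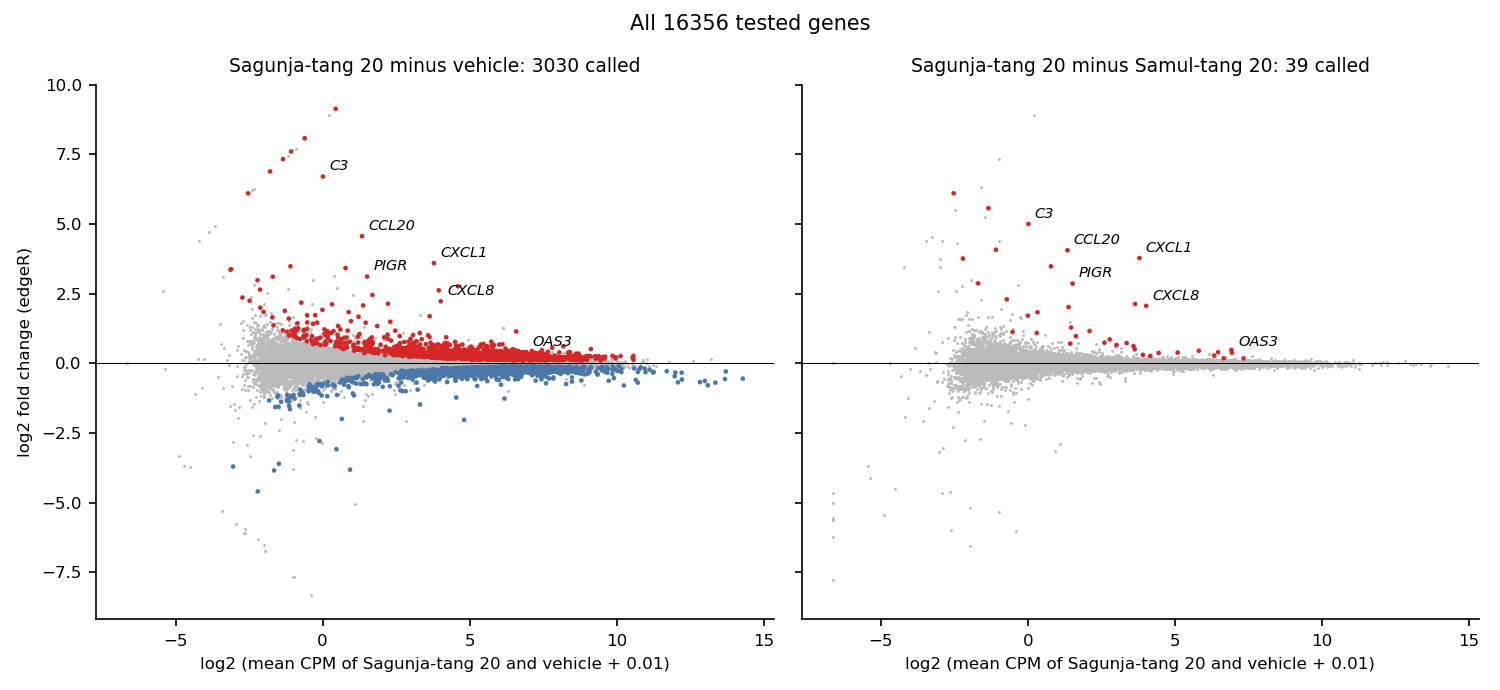
Log2 fold change (vertical axis, edgeR) against the log2 mean CPM of the 6 libraries (horizontal axis, with 0.01 added) for each of 16356 genes, for Sagunja-tang at 20 µg/mL minus the vehicle (left) and minus Samul-tang at 20 µg/mL (right). Red points are called higher and blue points lower at an adjusted p under 0.05: 3030 genes on the left, most of them near 0, and 39 on the right, all higher.

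Of 12 tested chemokines, 7 were higher than in the vehicle and 1 was lower, beside 9.68% higher and 8.85% lower over all tested genes. The median over the 12 was 2.10 on the log2 scale, beside 0.002 over all tested genes. DESeq2 called 3 of these 7 and gave no adjusted p for the other 4, and against Samul-tang it called all 7. CXCL5 and CXCL10 reached at most 0.0457 and 0.34 CPM in the 48 fitted libraries without Sagunja-tang. Each thus passed the count filter only through Sagunja-tang libraries. Keeping such genes tilts the count and the median upward. CXCL1, which attracts neutrophils through the receptor CXCR2, stood at 1.97, 1.74 and 2.66 CPM in the vehicle and at 24.1, 27.4 and 24.9 CPM in Sagunja-tang. All 3 treated libraries lay far above the vehicle, a 12.1-fold difference (log2 3.60, SE 0.17, adjusted p = 6.5e-21). In Samul-tang at 20 µg/mL CXCL1 was at 1.73, 1.77 and 2.05 CPM, overlapping the vehicle, and the difference of Sagunja-tang from it was 3.78 on the log2 scale (SE 0.17, adjusted p = 7.4e-22). CXCL8, the neutrophil attractant also called interleukin 8, was at 5.68, 5.39 and 6.02 CPM in the vehicle, at 6.26, 6.54 and 6.31 CPM in Samul-tang and at 26.5, 25.7 and 27.8 CPM in Sagunja-tang. Its levels did not overlap between Sagunja-tang and either other group, and it was 4.69-fold above the vehicle (log2 2.23, SE 0.10, adjusted p = 5.9e-22). Across the 48 fitted libraries without Sagunja-tang, CXCL1 ranged from 1.07 to 4.39 CPM and CXCL8 from 4.78 to 9.15 CPM, so no library of another treatment reached the lowest Sagunja-tang library for either gene.

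CCL20, which draws CCR6-bearing lymphocytes and dendritic cells to mucosal surfaces, was at 0.189, 0.255 and 0.15 CPM in the vehicle and at 4.77, 5.25 and 4.55 CPM in Sagunja-tang. It had one of the larger changes among chemokines, at 4.57 on the log2 scale (SE 0.28, adjusted p = 4.1e-17), and again the groups did not overlap. CXCL6 rose from 0.189, 0.425 and 0.251 to 3.66, 2.45 and 3.27 CPM (log2 3.42, SE 0.27, adjusted p = 5e-13). CXCL2 was at 0.303, 0.595 and 0.502 CPM in the vehicle and at 1.81, 2.34 and 1.89 CPM with Sagunja-tang (log2 2.12, SE 0.25), and CXCL3 at 1.02, 0.934 and 1 CPM and at 4.65, 3.93 and 4.01 CPM (log2 2.08, SE 0.20). CXCL1, CXCL2 and CXCL3 are near-identical copies, so how the estimated counts are split among them is uncertain. CXCL5, another neutrophil attractant, had no count in the vehicle and 64 counts in Sagunja-tang, at 0.788, 0.603 and 0.909 CPM, which makes it at least 18.8-fold higher when the vehicle is set at 3 counts over the group. Against Samul-tang, the same 7 chemokines were called, with differences of 4.06 for CCL20, 3.48 for CXCL6, 1.84 for CXCL2 and 2.02 for CXCL3. With the library set term 6 of the 7 were still higher, CXCL1 at 4.06, CXCL8 at 2.25 and CCL20 at 4.68, while CXCL5 had an adjusted p of 0.058.

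The other chemokines did not follow. CXCL16, which has a membrane-bound form on epithelium, was lower by 0.30 on the log2 scale (adjusted p = 0.039), at 10.9, 11.8 and 9.98 CPM in the vehicle, 8.67, 9.75 and 8.12 CPM in Sagunja-tang and 10.1, 9.6 and 9.03 CPM in Samul-tang. That call was lost with the library set term, at -0.10. CCL28, a chemokine of mucosal surfaces, was at 3.07, 3.57 and 3.66 CPM against 3.27, 3.72 and 3.84 CPM with Sagunja-tang, so its groups overlapped. CXCL10 and CXCL11, T cell attractants induced by interferon, stayed at or below 0.606 CPM in all 6 libraries and were not called. CCL2 and CCL5 did not have enough counts to be tested, with 0 and 14 counts in Sagunja-tang and 0 and 5 in the vehicle.

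**Figure D2:**
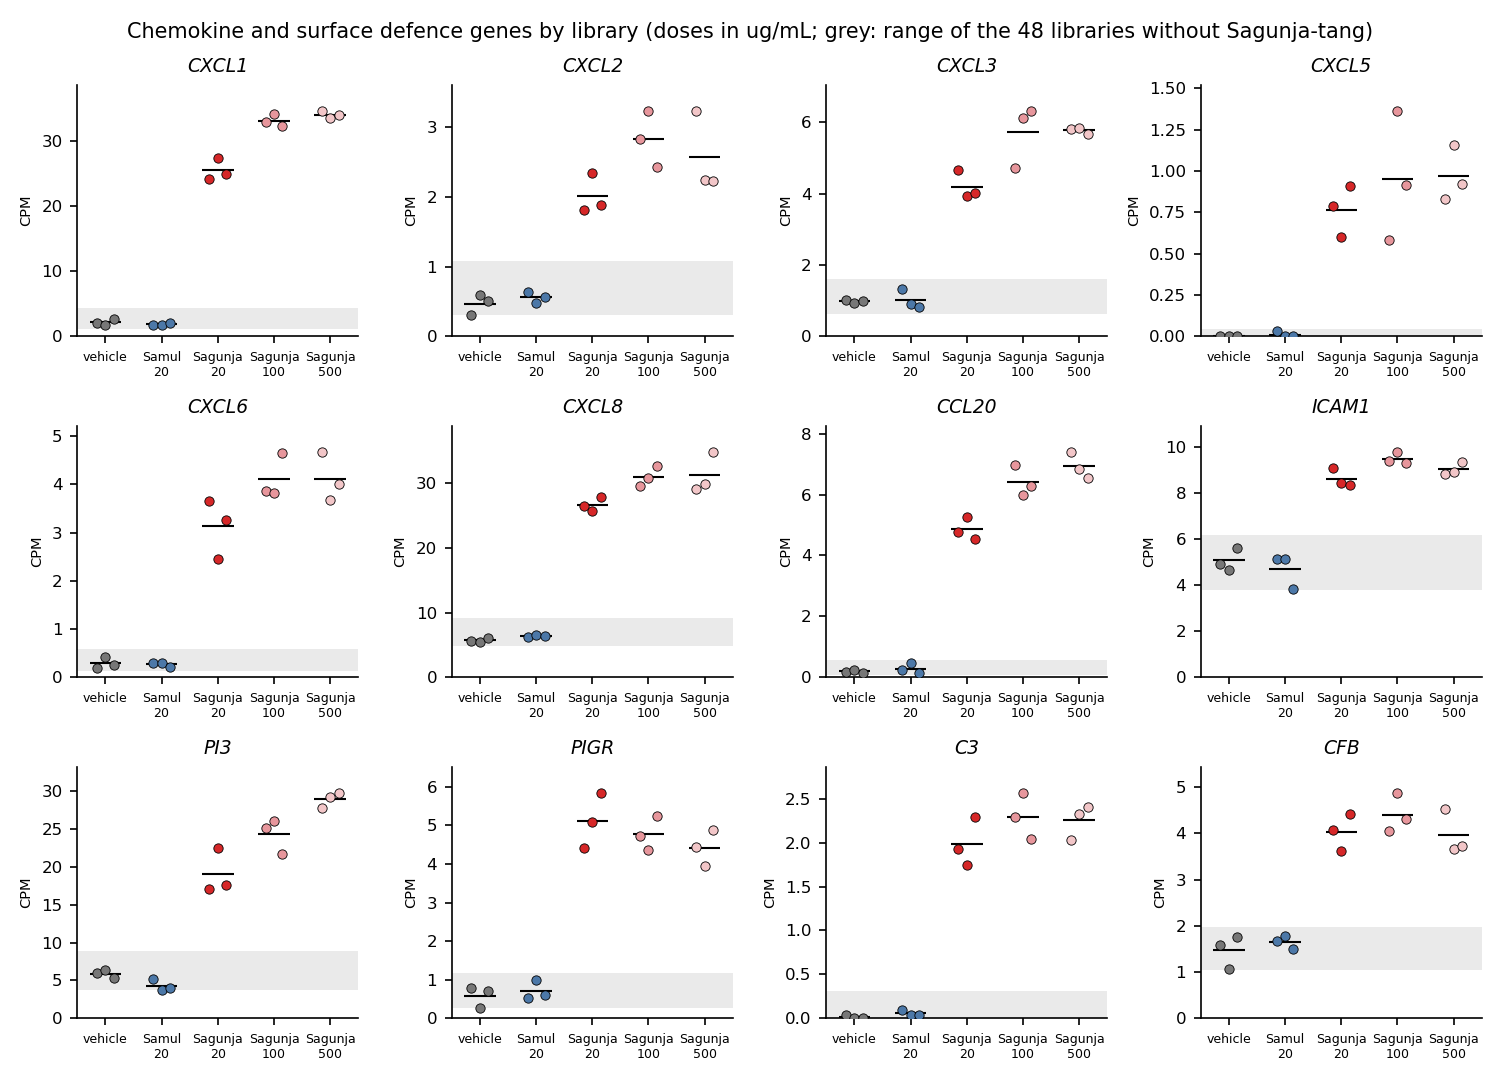
CPM (linear axes from 0) of 12 chemokine, adhesion and surface defence genes in each of the 3 libraries of the vehicle, Samul-tang at 20 µg/mL and Sagunja-tang at 20, 100 and 500 µg/mL. Points are libraries, lines are group means and the grey band is the range of the 48 libraries without Sagunja-tang; in these 12 genes every Sagunja-tang library at 20 µg/mL lies above the band.

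The promoters of the 7 chemokines that rose are shown because they share a sequence that NF-kB is known to bind. The windows below run from 110 to 31 bases before the gene start in RefSeq (GRCh38.p14) and are written along the gene's own strand, with matches to GGNNTTTCC or its reverse complement GGAAANNCC in capitals. They lie at chr4:73869283-73869362 (plus strand, CXCL1), chr4:74099226-74099305 (minus, CXCL2), chr4:74038720-74038799 (minus, CXCL3), chr4:73998708-73998787 (minus, CXCL5), chr4:73836568-73836647 (plus, CXCL6), chr4:73740459-73740538 (plus, CXCL8) and chr2:227813732-227813811 (plus, CCL20). For all of them but CXCL1, the outermost transcript in GENCODE release 29 starts upstream of the RefSeq start.
CXCL1: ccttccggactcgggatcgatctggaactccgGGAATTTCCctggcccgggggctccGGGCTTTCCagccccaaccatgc
CXCL2: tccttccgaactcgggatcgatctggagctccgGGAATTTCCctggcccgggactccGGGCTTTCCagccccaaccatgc
CXCL3: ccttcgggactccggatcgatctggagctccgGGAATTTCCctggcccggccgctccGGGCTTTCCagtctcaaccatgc
CXCL5: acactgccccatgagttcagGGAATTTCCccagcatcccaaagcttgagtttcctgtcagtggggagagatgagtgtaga
CXCL6: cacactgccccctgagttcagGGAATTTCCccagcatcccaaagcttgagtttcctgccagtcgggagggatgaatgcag
CXCL8: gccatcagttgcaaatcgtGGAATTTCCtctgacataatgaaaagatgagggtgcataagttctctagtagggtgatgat
CCL20: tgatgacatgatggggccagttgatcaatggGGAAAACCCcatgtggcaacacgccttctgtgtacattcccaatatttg
CXCL1, CXCL2 and CXCL3 each hold 2 matches in these windows, and the other 4 genes hold 1. CXCL5 and CXCL6 resemble each other along the whole window, as do CXCL1, CXCL2 and CXCL3, so the promoters are not 7 independent sequences. In the 250 bases before the start, searched on both strands, a match occurred in 5.48% of 35116 RefSeq promoters. CXCL10 and CXCL11, which were not called, also hold one. Both had few counts, with log2 differences from the vehicle of 0.93 and 0.32, so whether they rose could not be settled. A match is a description of the sequence and not evidence that a factor was bound in these cells.

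Of 16 tested surface defence and acute phase genes, 7 were higher than in the vehicle and 3 were lower, with a median of 1.24 on the log2 scale. The shares over all genes were 9.68% higher and 8.85% lower. The fit with the library set term also gave 7 higher and none lower, and DESeq2 called 3 of the first 7 and gave no adjusted p for the other 4. Against Samul-tang 7 were higher and none lower, with a median of 1.15. C3, SAA1 and DUOX2 reached at most 0.308, 0.0914 and 0.214 CPM in the 48 fitted libraries without Sagunja-tang. Each passed the count filter only through Sagunja-tang libraries, which tilts these counts and medians upward. PI3, which encodes the protease inhibitor elafin, was at 6.02, 6.33 and 5.27 CPM in the vehicle, 5.24, 3.78 and 3.96 CPM in Samul-tang and 17.1, 22.5 and 17.6 CPM in Sagunja-tang. Its Sagunja-tang libraries stood above all 6 others, by 1.69 over the vehicle (SE 0.13, adjusted p = 1.5e-13) and by 2.13 over Samul-tang (SE 0.13, adjusted p = 3.9e-17). PIGR, the receptor that carries IgA across the epithelium, was at 0.795, 0.255 and 0.702 CPM in the vehicle and at 4.41, 5.1 and 5.83 CPM in Sagunja-tang, an 8.69-fold difference (log2 3.12, SE 0.28, adjusted p = 5.2e-11). CEACAM7, a surface glycoprotein of colon epithelium, went from 0.265, 0.297 and 0.702 to 1.58, 1.6 and 1.48 CPM (log2 1.92, SE 0.34, adjusted p = 0.00023).

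Complement genes were among them. C3, the central component of the cascade, had 1 count in the vehicle and 166 in Sagunja-tang, at 1.93, 1.74 and 2.29 CPM, a ratio of 146 with an exact 95% interval of 25.9 to 5813 that covers counting error only. Against Samul-tang, where C3 was at 0.0964, 0.034 and 0.0373 CPM, it was higher by 5.01 on the log2 scale (SE 0.47, adjusted p = 1.3e-10). CFB, complement factor B, was at 1.59, 1.06 and 1.76 CPM in the vehicle and at 4.06, 3.62 and 4.41 CPM in Sagunja-tang (log2 1.46, SE 0.18, adjusted p = 2.9e-07), without overlap. SAA1, an acute phase protein, had no count in the vehicle or in Samul-tang and 27 counts in Sagunja-tang, which is at least 7.93-fold above the vehicle and at least 9.47-fold above Samul-tang. Its near-identical neighbour SAA2 was too low to be tested, with 19 counts against 1.

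Other defence genes were less clear. DMBT1, a mucosal scavenger receptor, was at 0.378, 0.552 and 0.451 CPM in the vehicle and at 1.26, 1.52 and 1.04 CPM in Sagunja-tang, and its call against the vehicle (log2 1.47, adjusted p = 0.0025) did not hold with the library set term (adjusted p = 0.23) or against Samul-tang (adjusted p = 0.4). LCN2, which sequesters bacterial siderophores, overlapped with the vehicle, at 106, 114 and 119 CPM there and 125, 145 and 114 CPM in Sagunja-tang (adjusted p = 0.25). It was at 95.2, 90.6 and 88.7 CPM in Samul-tang, and the difference from that group was called at 0.49 (adjusted p = 0.028), a call that was kept when replicate 3 of Sagunja-tang was left out and lost without any 1 of the other 5 libraries, with adjusted p-values from 0.014 to 0.32. CEACAM1, CEACAM5 and CEACAM6, adhesion molecules of colon epithelium, were lower than in the vehicle by 0.29, 0.38 and 0.34, and none was called with the library set term or against Samul-tang, where the differences were -0.03, 0.09 and 0.01.

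Among cytokines and growth factors, 3 of 9 tested were higher than in the vehicle and 1 was lower, with a median of 0.21 on the log2 scale. Over all genes 9.68% were higher and 8.85% lower. With the library set term 1 (IL32) was higher. CSF1, the macrophage growth factor, was at 0.53, 1.1 and 0.702 CPM in the vehicle, 0.803, 0.817 and 0.709 CPM in Samul-tang and 1.54, 1.56 and 1.89 CPM in Sagunja-tang. It was the member called against both, by 1.10 (SE 0.21, adjusted p = 0.00077) and 1.09 (adjusted p = 0.0024), but with the library set term its adjusted p against the vehicle was 0.13. IL32, a proinflammatory cytokine, was at 0.454, 0.552 and 0.0502 CPM against 0.67, 1.45 and 0.943 CPM (log2 1.47, adjusted p = 0.0056), and TNFSF15 was higher by 0.21, a call lost with the set term. IL18, an epithelial cytokine of the interleukin 1 family, was lower by 0.47 than in the vehicle, was not called with the set term and differed by 0.02 from Samul-tang. The upstream cytokines of NF-kB were close to the limit of detection. TNF had 11 counts in Sagunja-tang and 1 in the vehicle, a ratio of 9.69 with a counting interval of 1.41 to 417, IL1B had 13 and 5 counts, and IL6 had none in either group, a depth at which a change could not be tested.

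Of 21 tested subunits, inhibitors and feedback genes, 6 were higher than in the vehicle and 2 were lower, with a median of 0.12. For all genes these shares were 9.68% and 8.85%. In the fit with the library set term 4 were higher and none lower, and 5 were higher than in Samul-tang. The count of 6 was 3 without replicate 1 or 3 of Sagunja-tang or replicate 3 of the vehicle, and the count against Samul-tang was 1 or 2 without any 1 library. NFKB2, a subunit of the noncanonical pathway, was at 15.7, 15.5 and 14.4 CPM in the vehicle and at 21.4, 20.1 and 20.1 CPM in Sagunja-tang (log2 0.43, SE 0.07, adjusted p = 2.2e-05). BIRC3, an inhibitor of apoptosis that ubiquitinates proteins of TNF receptor signalling, was at 9.76, 9.68 and 6.57 CPM in the vehicle, 7.29, 6.74 and 7.2 CPM in Samul-tang and 11.3, 12.5 and 11.3 CPM in Sagunja-tang. Sagunja-tang libraries lay above both groups, by 0.42 (adjusted p = 0.028) and 0.73 (adjusted p = 0.0024). The call against the vehicle was lost without any 1 of the Sagunja-tang libraries and without vehicle replicate 3, with adjusted p-values of BIRC3 from 0.001 to 0.73 over the alternatives. TNFAIP3, which encodes the deubiquitinase A20 that ends NF-kB signalling, was at 3.39, 2.98 and 3 CPM in Sagunja-tang. It was higher by 0.45 than in the vehicle and by 0.71 than in Samul-tang. The call against the vehicle was kept in 6 of 16 alternatives, with adjusted p-values of TNFAIP3 from 0.032 to 0.74. It was lost with the set term, with DESeq2 and without any 1 Sagunja-tang library, among others. NFKBIA, the inhibitor IkB alpha, was at 26.1, 27.1 and 25.6 CPM in the vehicle and at 27.4, 26.6 and 26.1 CPM in Sagunja-tang, with a difference of 0.02 that became 0.32 (adjusted p = 0.025) with the library set term. RELA, the main activating subunit, was lower by 0.24 than in the vehicle, was not called with the set term and differed by -0.02 from Samul-tang. The calls against Samul-tang of NFKB2, TNFAIP3, TNIP1 and ZC3H12A were lost without any 1 library for the former pair and without any 1 of 5 of the 6 libraries for the latter pair, with adjusted p-values over the alternatives from 0.025 to 1, 0.021 to 0.48, 0.0047 to 1 and 0.00067 to 1.

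Adhesion genes gave 3 higher and 1 lower than in the vehicle of 9 tested, beside 9.68% higher and 8.85% lower over all genes. With the library set term 2 were higher and none lower. Against Samul-tang 3 were higher and none lower. ICAM1, which leukocytes bind through integrins, was at 4.92, 4.67 and 5.62 CPM in the vehicle, 5.14, 5.14 and 3.84 CPM in Samul-tang and 9.06, 8.44 and 8.32 CPM in Sagunja-tang. Sagunja-tang stood above every other library, by 0.77 over the vehicle (SE 0.11, adjusted p = 6.1e-06) and 0.86 over Samul-tang (adjusted p = 4.9e-07). MMP7, the matrilysin that activates epithelial defensins, was at 52.1, 56.6 and 42.9 CPM against 63.5, 66.2 and 55.2 CPM, so that the groups overlapped (log2 0.28, adjusted p = 0.012), and the call was lost with the set term. Against Samul-tang MMP7 was called higher by 0.45, and 15 of 16 alternatives kept that call. SOD2, the mitochondrial superoxide dismutase and an NF-kB target, was higher by 0.43 than in the vehicle, at 97.9, 87.9 and 92.2 CPM. Its difference of 0.28 from Samul-tang was called, and 10 of 16 alternatives kept that call. PTGS2, the inducible cyclooxygenase, was not called at 0.08 against the vehicle. Of the microbial sensors and their adaptors, 1 of 13 tested (IRAK1, at 0.22) was higher than in the vehicle, near the 9.68% of all genes. None was called with the library set term or against Samul-tang. TLR2 and NOD2 had no count in either group.

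Of 45 tested interferon-stimulated effectors, 14 were called above the vehicle and 1 below, beside 9.68% and 8.85% of all genes. A positive difference was seen in 39, and the median was 0.28 on the log2 scale. With the library set term 7 were higher and none lower (OAS2, OAS3, MX1, IFI27, DDX60, CMPK2 and IFI44L). In that fit the median was 0.26 and 41 of the 45 had a positive difference. Against Samul-tang 6 were higher, with a median of 0.24, and 3 without Sagunja-tang replicate 1 or Samul-tang replicate 1. The count above the vehicle was 9 without vehicle replicate 3. OAS3, an oligoadenylate synthetase that activates RNase L, was at 97.8, 109 and 108 CPM in the vehicle, 107, 107 and 105 CPM in Samul-tang and 149, 125 and 142 CPM in Sagunja-tang. The Sagunja-tang libraries did not overlap either group and were 1.33-fold above the vehicle (log2 0.41, SE 0.05, adjusted p = 9.6e-07). OAS2 was at 2.35, 3.99 and 2.41 CPM in the vehicle and at 6.58, 4.64 and 5.59 CPM in Sagunja-tang (log2 0.94, SE 0.21, adjusted p = 0.003). IFI27, an interferon-induced protein of the mitochondrial and nuclear membranes, was at 8.21, 8.28 and 7.37 CPM in the vehicle, 9.51, 12.3 and 9.48 CPM in Samul-tang and 19.1, 12.8 and 16.3 CPM in Sagunja-tang. Replicate 2 of Sagunja-tang was close to the highest Samul-tang library, and IFI27 differed from the vehicle by 1.01 (SE 0.15, adjusted p = 1.4e-05) and from Samul-tang by 0.62 (adjusted p = 0.034). The latter call was lost without replicate 1 or 3 of Sagunja-tang and without replicate 1 or 3 of Samul-tang, with adjusted p-values of IFI27 up to 0.95 over the alternatives.

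MX1, a GTPase that blocks viral ribonucleoproteins, was at 5.53, 7.56 and 5.72 CPM in the vehicle and at 12.2, 8.08 and 9.13 CPM in Sagunja-tang (log2 0.64, SE 0.14, adjusted p = 0.0018). DDX60, an RNA helicase of the antiviral response, was at 4.35, 5.39 and 4.36 CPM against 7.56, 6.81 and 7.81 CPM (log2 0.65, SE 0.11, adjusted p = 7.6e-05). For both genes the lowest Sagunja-tang library lay above the highest vehicle and Samul-tang library, and the differences from Samul-tang were 0.66 (adjusted p = 0.0061) and 0.74 (adjusted p = 1.1e-05). That of MX1 was not called without Sagunja-tang replicate 1, Samul-tang replicate 1 or Samul-tang replicate 3, with adjusted p-values up to 0.39. CMPK2, a mitochondrial nucleotide kinase, and IFI44L were higher than in the vehicle by 1.03 and 1.73 but were not called against Samul-tang, with adjusted p-values of 0.38 and 0.088. ISG15, the ubiquitin-like modifier, was at 17.3, 18 and 13.4 CPM in the vehicle, 20.3, 18.4 and 19.6 CPM in Samul-tang and 24.5, 21.3 and 20.5 CPM in Sagunja-tang. Its call against the vehicle (log2 0.44, adjusted p = 0.0093) did not hold against Samul-tang at 0.18 or with the library set term at 0.20. IFIT2, IFIT3, IFI44, MX2 and RSAD2 were not called in either comparison. IFITM2 was lower than in the vehicle by 0.40, was not called with the set term and differed by -0.14 from Samul-tang.

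**Figure D3:**
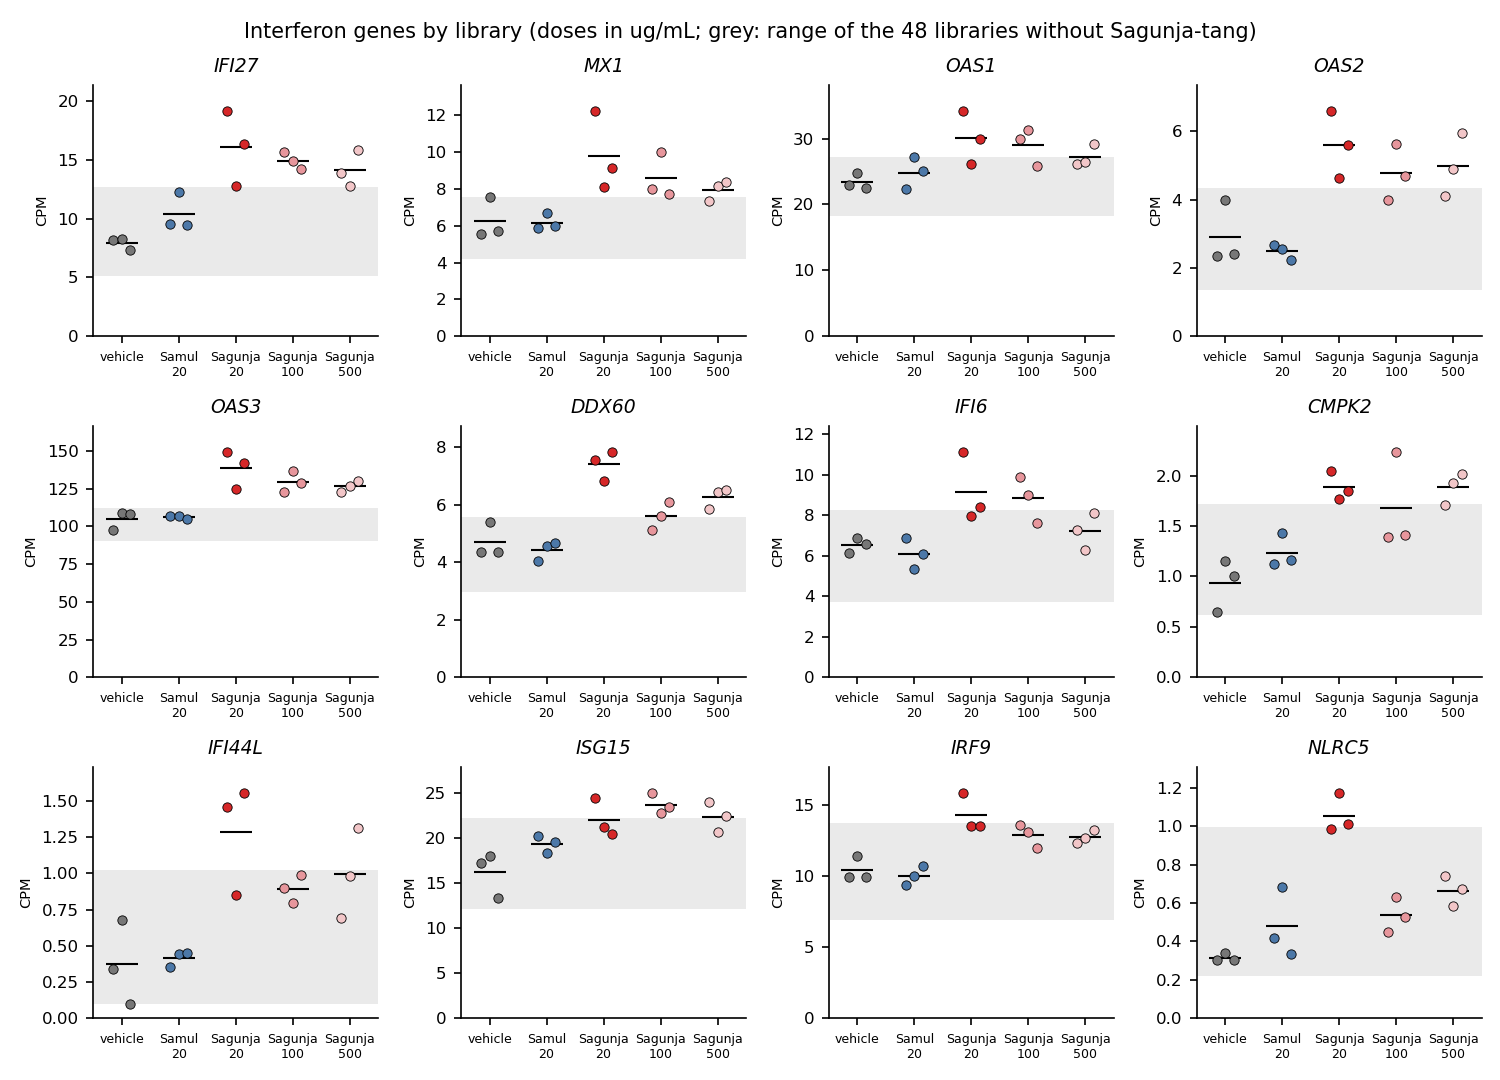
CPM (linear axes from 0) of 12 interferon genes in each library of the vehicle, Samul-tang at 20 µg/mL and Sagunja-tang at 20, 100 and 500 µg/mL, with group means as lines and the range of the 48 libraries without Sagunja-tang in grey. OAS3, with 125 to 149 CPM at 20 µg/mL, and DDX60 lie above the band in all 3 libraries of that dose, while OAS1, IFI6, IFI44L, ISG15, IRF9 and NLRC5 reach into it.

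Of the interferon sensors and signalling genes, 6 of 22 tested were higher than in the vehicle and 1 was lower, with a median of 0.07. All genes together had 9.68% higher and 8.85% lower. With the library set term 2 of the 22 were higher and none lower. IRF9, the DNA-binding subunit of the interferon-activated STAT complex, was at 9.95, 11.4 and 9.93 CPM in the vehicle, 9.38, 10 and 10.7 CPM in Samul-tang and 15.8, 13.5 and 13.5 CPM in Sagunja-tang. It was called against the vehicle by 0.45 (SE 0.11, adjusted p = 0.0041), with the library set term by 0.69 and against Samul-tang by 0.51 (adjusted p = 0.0083), the last not without Sagunja-tang replicate 1 or Samul-tang replicate 1. STAT2, a partner of IRF9 in that complex, was at 20, 17.6 and 18.8 CPM in the vehicle, 22.9, 24.8 and 26.3 CPM in Samul-tang and 24.9, 23.4 and 24.8 CPM in Sagunja-tang, so that both formulae lay above the vehicle alike. With the library set term STAT2 was at 0.14 and not called. The interferons were barely detected, with 2 counts of IFNB1 in each group and 6 counts of IFNL1 in Sagunja-tang against 1 in the vehicle.

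Antigen presentation genes of HLA class I gave 6 higher and 1 lower than in the vehicle of 17 tested, with a median of 0.20. The shares over all genes were 9.68% and 8.85%. With the library set term, and against Samul-tang, 1 of the 17 was higher. The count above the vehicle was 3 without Sagunja-tang replicate 2 or vehicle replicate 3. The gene called in all 3 fits was NLRC5, the transactivator of HLA class I genes, at 0.303, 0.34 and 0.301 CPM in the vehicle, 0.418, 0.681 and 0.336 CPM in Samul-tang and 0.985, 1.17 and 1.01 CPM in Sagunja-tang (log2 1.73, SE 0.29, adjusted p = 9.7e-05 against the vehicle). Against Samul-tang the difference was 1.13 (adjusted p = 0.034), with adjusted p-values from 0.01 to 0.52 over the alternatives. TAP1, which pumps peptides into the endoplasmic reticulum, was higher than in the vehicle by 0.53 and not called with the set term or against Samul-tang at 0.30. B2M, the light chain, was lower by 0.31 against the vehicle, and with the library set term the difference was 0.02.

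The promoters of 3 effectors called in both comparisons are printed for the interferon response element they carry, with matches to GAAA, any 2 bases and GAAA again, on either strand, in capitals (RefSeq, GRCh38.p14, along the gene's own strand). The DDX60 window (chr4:168318783-168318862, minus strand) and the IFI27 window (chr14:94110626-94110705, plus strand) run from 110 to 31 bases before the RefSeq start, and the OAS3 window (chr12:112938324-112938473, plus strand) from 150 bases before it to the base before it. GENCODE release 29 starts the outermost transcript of all 3 further upstream.
DDX60: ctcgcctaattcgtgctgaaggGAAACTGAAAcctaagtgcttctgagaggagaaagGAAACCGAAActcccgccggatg
IFI27: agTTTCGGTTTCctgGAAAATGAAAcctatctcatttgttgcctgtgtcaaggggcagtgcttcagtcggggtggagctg
OAS3: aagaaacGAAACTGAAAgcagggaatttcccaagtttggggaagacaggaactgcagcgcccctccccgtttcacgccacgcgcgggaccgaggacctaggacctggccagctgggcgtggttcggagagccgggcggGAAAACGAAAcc
Each window holds 2 matches to the interferon response element. The OAS3 window also holds a match to the NF-kB letters, left in lower case. In the 250 bases before the start the element occurred in 3.02% of 35116 promoters, in 28 of the 39 interferon-stimulated effectors with a promoter entry, and in all 5 of the effectors called against Samul-tang that had one. Most effectors that were not called thus carry it too. Of all 30 called genes with an entry in that comparison, 15 held the NF-kB letters and 6 the interferon response letters.

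Of the 39 genes called against Samul-tang, 8 are in none of the lists and were picked out after their values were seen. SLFN5, a Schlafen family member, was at 26.2, 29.7 and 28.9 CPM in the vehicle, 30.5, 28.7 and 31.9 CPM in Samul-tang and 38.9, 39.7 and 40.7 CPM in Sagunja-tang. Its 3 treated libraries were tightly grouped above the rest (log2 0.49, SE 0.05, adjusted p = 1.6e-08 against the vehicle). IL17C, an epithelial cytokine of the interleukin 17 family, was at 0.0757, 0.0849 and 0.0502 CPM against 0.591, 1.31 and 0.64 CPM (log2 3.49, SE 0.58, adjusted p = 7.9e-05), and IL4I1, a secreted amino acid oxidase, at 0.189, 0.382 and 0.0502 CPM against 0.985, 0.993 and 0.977 CPM (log2 2.18, SE 0.41). SDC4, a heparan sulfate proteoglycan, rose by 0.50 and POU2F2, a transcription factor, by 0.70. The remaining members were ASS1 at 0.27, DOC2B with 44 counts against 4, and MIR3142HG, the host transcript of MIR3142, with 31 counts against 3. The calls of IL17C, ASS1, DOC2B and MIR3142HG against the vehicle were lost with the library set term. IL17C, DOC2B and MIR3142HG reached at most 0.299, 0.253 and 0.111 CPM in the 48 fitted libraries without Sagunja-tang. These genes passed the count filter only through Sagunja-tang libraries, which tilts the count of called genes upward.

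Taking the 48 fitted libraries without Sagunja-tang together, 45 of the 16356 genes (0.275%) had all 3 libraries at 20 µg/mL above every one of them, and 32 of these 45 are members of the inflammatory or interferon lists. This is a description, since it uses the same libraries as the comparisons above. Some of the 45, such as CXCL5, C3, SAA1 and IL17C, were tested only because of their Sagunja-tang libraries. The list members include all 7 chemokines, C3, CFB, PI3, PIGR, SAA1, CEACAM7, ICAM1, SOD2, OAS2, OAS3, MX1, DDX60 and IFI27. For 30 of the 45 genes (23 of them list members) all 9 Sagunja-tang libraries, over the 3 doses, lay above the other 48. DDX60, MX1, OAS2, PARP14, TAP1 and CMPK2 are in the larger group but not the smaller. Lying below all 48 were 3 genes (0.0183%), CPTP, LIN52 and SHLD1, named after their values were seen and in none of these lists.

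Few differences were called between 20 µg/mL and the higher doses of Sagunja-tang. From 20 to 500 µg/mL, 1 gene of 16356 (0.00611%) was called, PI3, which rose further by 0.60 (SE 0.11, adjusted p = 0.025). Its levels at 500 µg/mL were 27.8, 29.3 and 29.7 CPM, all above the 17.1 to 22.5 CPM at 20 µg/mL, but its call was kept without replicate 2 at 20 µg/mL and lost without any 1 of the other 5 libraries, with adjusted p-values from 0.0029 to 0.5. At an unadjusted p under 0.05 there were 1598 genes (9.77%), and DESeq2 called 42. An edgeR fit with a replicate block called 27, with 10 higher and 17 lower. All 3 libraries at 500 µg/mL lay above all 3 at 20 µg/mL in 9.72% of tested genes. CXCL1 was at 32.9, 34.1 and 32.2 CPM at 100 µg/mL and at 34.5, 33.5 and 33.9 CPM at 500 µg/mL, above all 3 libraries at 20 µg/mL, and its difference of 0.41 between 500 and 20 µg/mL (SE 0.13) had an adjusted p of 0.24. For CCL20 the levels were 6.97, 5.99 and 6.27 CPM at 100 µg/mL and 7.38, 6.84 and 6.55 CPM at 500 µg/mL. PIGR, CFB and ICAM1 differed between 500 and 20 µg/mL by -0.21, -0.03 and 0.07, with overlapping libraries.

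The medians of the chemokines and the interferon effectors lay on opposite sides of 0 in that dose comparison, without a call on either side. Of 12 tested chemokines 11 were higher at 500 than at 20 µg/mL (median 0.34). Of 45 tested interferon-stimulated effectors 13 were higher (median -0.07), beside a median of 0.001 over all genes. Unrelated lists could be as one-sided, with 23 of 24 S phase genes (median 0.08) and 4 of 15 WNT targets (median -0.04) higher. Cholesterol synthesis genes (9 of 24, median -0.02) and goblet and secretory genes (7 of 13, median 0.03) were less so. The lists were not tested as sets, so the contrast between chemokines and interferon effectors is a description only. MX1 was at 7.34, 8.15 and 8.39 CPM at 500 µg/mL and 12.2, 8.08 and 9.13 CPM at 20 µg/mL, and OAS3 at 123, 127 and 130.3 CPM and 149, 125 and 142 CPM, so that both overlapped between doses. The differences were -0.29 (SE 0.13) and -0.13 (SE 0.05), with adjusted p-values of 0.45 and 0.37. Between 100 and 20 µg/mL no gene (0%) was called by edgeR or DESeq2, with 791 (4.84%) at an unadjusted p under 0.05.

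Of the 12 genes that the rule for named genes took as higher, SLX1B, H4C14 and OXCT2 are in none of the lists, and they differed from Samul-tang by 0.73, 0.28 and -0.09 without a call. SLX1B, a nuclease subunit with a near-identical copy, varied widely, at 0.757, 2.08 and 0.0502 CPM in the vehicle and 6.58, 4.54 and 5.35 CPM in Sagunja-tang. The 12 taken as lower were ETFRF1, NPIPB13, PRAP1, CNFN, MT-CO2, HOXC8, H3C10, SH3BGRL3, PIERCE2, MT-ND4, MT-ND3 and HOXA2, with NPIPB13 at -0.99 and HOXA2 at -0.69. None of the 12 was called with the library set term or against Samul-tang. PRAP1, a secreted protein of gut epithelium, was at 7.57, 7.81 and 9.48 CPM in the vehicle, 4.91, 5.92 and 4.59 CPM in Samul-tang and 4.65, 4.57 and 3.44 CPM in Sagunja-tang, and both formulae lay below the vehicle.

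Mitochondrially encoded mRNAs, which encode subunits of the respiratory chain, were lower than in the vehicle for 10 of 13 tested, beside 8.85% of all genes. Their median was -0.63 on the log2 scale. MT-CO2, a subunit of cytochrome c oxidase, was at 9567, 11144 and 12625 CPM in the vehicle, 7223, 6133 and 6927 CPM in Samul-tang and 6415, 7076 and 5867 CPM in Sagunja-tang. With the library set term none of the 13 was called, the median was -0.26, and against Samul-tang the median was -0.01. The noncoding RNAs RN7SL1 and RN7SL2, components of the signal recognition particle that were picked out after their values were seen, were higher in both formulae than in the vehicle. RN7SL2 was at 8.93, 5.69 and 3.51 CPM in the vehicle, 42.4, 40.1 and 26.4 CPM in Samul-tang and 70.2, 16 and 41.6 CPM in Sagunja-tang.

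Beside the 9.68% of all genes that were higher and the 8.85% that were lower than in the vehicle, 7 of 24 S phase genes were higher, E2F1 by 0.41 among them, and 4 of 24 cholesterol synthesis genes, with MVD at 0.33. The goblet and secretory genes had 1 higher and 3 lower of 13, and the WNT targets 1 higher and 5 lower of 15. Under the library set term no S phase or cholesterol gene was called, 1 goblet gene was lower and 2 WNT targets were lower. REG4, a secreted lectin of goblet and enteroendocrine cells, was lower by 0.53 without and by 0.38 with the set term (adjusted p = 1.1e-05 and 0.0082), at 24.5 ± 2.17 CPM against 35.3 ± 1.34 (SD, n = 3 each). SOX9, a WNT target and progenitor cell factor, was lower by 0.34 both ways, at 152 ± 2.03 CPM against 192 ± 15.8. Neither was called against Samul-tang, where the differences were -0.19 and 0.03. None of these 4 lists had a called member against Samul-tang.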

How the data were processed

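Total RNA of HT29 cells was sequenced with an MGI directional kit as 100-base paired reads, per the labels' protocols. The authors deposited 1 table of RSEM expected counts for 60675 Ensembl genes, made on hg38 with STAR (2.7.3a) and RSEM (1.3.3) among the tools listed, per the submitters' processing notes, which also list Trim Galore (0.6.5) and FastQC (0.11.9). For the counting, neither an annotation release nor a strand setting was given in those sources. Values that were not whole (8.8%) were rounded first. The table has 213 value columns that match no sample here and were not used. Paeoniae Radix, with 1 library per dose, was left out, so that 57 libraries in 19 groups entered 1 fit.

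Genes with at least 10 counts by edgeR's filter (16356) were tested with edgeR 4.0.16 (R 4.3.3), TMM factors of 0.938 to 1.043, the quasi-likelihood test and Benjamini-Hochberg adjustment over all tested genes, at 0.05. Every p and adjusted p in the text is from that test unless another tool is named, and standard errors are the log2 change divided by the square root of its F value. The filter was run over all groups, so a gene could be tested through its Sagunja-tang libraries alone. CPM values use TMM-scaled library sizes. A group without counts was set at 3 counts for a lower bound, and ratios of very low counts have exact 95% intervals for counting error only. On simulated counts for the comparison with the vehicle over 16356 genes, 23 of 50 genes changed 1.25-fold, 36 of 50 changed 1.5-fold, 48 of 50 changed 2-fold and 50 of 50 changed 4-fold were recovered. The 15 replicate pairs compared had log2 CPM correlations of 0.9905 to 0.9933 and differed by more than counting noise.

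Named in the text are, in each direction, the 12 called genes that differed most from the vehicle (mean of at least 1 CPM, groups not overlapping, ordinary gene symbols), up to 5 each way in other comparisons, members of the inflammatory, interferon and marker lists, and up to 3 called members of each other list. The lists and the comparison were chosen with earlier results of these data known. Alternatives were RLE factors, DESeq2 1.42.0, no count filter, the 6 libraries alone, a replicate block, a library set term, glmTreat, no mitochondrial genes and leaving out each library. A GC offset and a robust fit were added after seeing the data. Promoters are from RefSeq (GRCh38.p14). Some genes are not reported here.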

Additional observations from a re-analysis of the deposited data

Results flagged for a closer look

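At 20 µg/mL, 39 genes differed between Sagunja-tang and Samul-tang, all higher with Sagunja-tang, by edgeR's quasi-likelihood test of the 2 formulae. A difference between their differences from the vehicle is this same comparison, since the vehicle cancels, so it is not a further result. PI3 rose from 20 to 500 µg/mL of Sagunja-tang by a further 0.60 on the log2 scale (adjusted p = 0.025, edgeR), with all 3 libraries at the higher dose above those at the lower one. That call was kept without replicate 2 at 20 µg/mL and lost without any 1 other library of these doses.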

How the results depend on the processing

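Against the vehicle, 3030 genes were called, 66 with glmTreat, 99 with the library set term and 1213 to 2889 when 1 library was left out. A GC offset gave 1227 higher and 1598 lower in place of 1583 and 1447. Against Samul-tang, 39 genes were called, 22 with glmTreat, 125 without a count filter (71 higher and 54 lower) and 26 to 35 when 1 library was left out. Between 500 and 20 µg/mL, 1 gene was called, 0 with glmTreat, 213 without a filter, 3 in the 6 libraries alone, 27 with the replicate block, 36 with the set term, 22 with the GC offset, 42 by DESeq2 and 0 to 38 when 1 library was left out. Between 100 and 20 µg/mL the count was 0, and 101 without a filter. With the set term, B2M (0.02), PMVK (-0.01) and FCGBP (-0.00) changed sign against the vehicle. The causes were not tested. Replicates with the same number had correlations of deviations of 0.012 to 0.025 (vehicle), 0.002 to 0.094 (Samul-tang), 0.033 to 0.068 (500 µg/mL) and 0.085 to 0.142 (100 µg/mL). Those with different numbers had -0.051 to 0.035, -0.083 to 0.03, -0.064 to -0.001 and -0.143 to 0.016, in the same order. Between doses of Sagunja-tang, same-number pairs thus all lay above the others, and what such replicates shared was not tested. The main fit has no replicate block, and with one there were 3456 calls against the vehicle and 40 against Samul-tang. At these depths TNF, IL1B, IL6, IFNB1 and IFNL1 could not be tested.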
